A study of Drosophila melanogaster with 4 samples.

Results

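The endoplasmic reticulum (ER) folds secreted and membrane proteins, and the genes described here serve that folding or sense its failure. The set holds 8 genes, chosen by gene symbol from the 2377 named genes that the arrays measured, with earlier results of these data known. Of these, 5 encode folding factors (Gp93, Cnx99A, Pdi, ERp60 and Sil1) and 3 encode stress sensors or effectors (PEK, crc and Herp). In this compartment, Hsp70- and Hsp90-type chaperones, lectin chaperones and disulfide isomerases act on new chains. When unfolded proteins build up, the kinase PERK (PEK in flies) phosphorylates the translation factor eIF2alpha, which lowers general protein synthesis and favours the translation of ATF4 (crc in flies). The whole response to unfolded proteins also has the sensors Ire1 and Atf6. In animals the whole response is known to raise the transcripts of ER chaperones and of proteins that send misfolded chains to the proteasome.

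The study sprayed adult Oregon-R females of Drosophila melanogaster, aged 10 to 20 days after emergence, from a Potter's tower, an apparatus that gives an even topical dose. Treated flies received 2 mL of an ethyl acetate extract of Piper nigrum (black pepper) seed at 0.9 mg/mL in 99% ethanol, and control flies 2 mL of 99% ethanol, so both groups carried the solvent. RNA was taken from whole flies after 4 h, in pools of about 240 females numbered 1 and 3, and each pool was compared with its control on 2 arrays with the dyes exchanged. An array is named below by its pool and by the dye that labelled the extract sample, and the 2 arrays of a pool count as 1 replicate (n = 2 pools).

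Each array gave 1 log2 ratio for each of 16896 spots, and no value was missing. The ratio was read as extract over ethanol. That direction and the log base of 2 are assumed, since neither is given in the sources used here; with ethanol on top every sign below would turn. The labels list the extract sample as the second channel on all 4 arrays, whichever its dye, so the values as deposited were the main reading. Only if the ratios were instead deposited by dye would the reading with the 2 Cy5 arrays turned hold the treatment effect. That reading is given beside the main one as a check. In the limma fits described below, 6 features passed as deposited and 0 when turned. Over all spots, pairs of arrays correlated at a Pearson r of 0.0187 to 0.0881, with 0.0211 and 0.0632 for the dye swaps of pools 1 and 3. Ratios carry no level, so whether a member or a tissue marker was expressed in these flies could not be checked, and in whole-fly RNA fewer cells of a type cannot be told apart from less RNA per cell.

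None of the 8 ER genes passed the test at 4 h. In limma's moderated fit over all 13607 features, 0 of 8 had an adjusted p under 0.05, against 6 features in all (0.0441%), and 0 of 8 had an unadjusted p under 0.05, against 7.34% of all features. The mean ratio lay below 0 for 7 of the 8, the exception being Herp, whereas 48.5% of named genes lay below 0. The median of the 8 was -0.12 on the log2 scale and that of all named genes 0.01. With the Cy5 arrays turned, 3 of the 8 lay below 0 and their median was 0.01. Mostly negative ratios were thus seen in the deposited reading and not in the turned one. As the members were chosen with earlier results of these data known, this count of signs was not tested and cannot support a fall of the set.

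**Figure D1:**
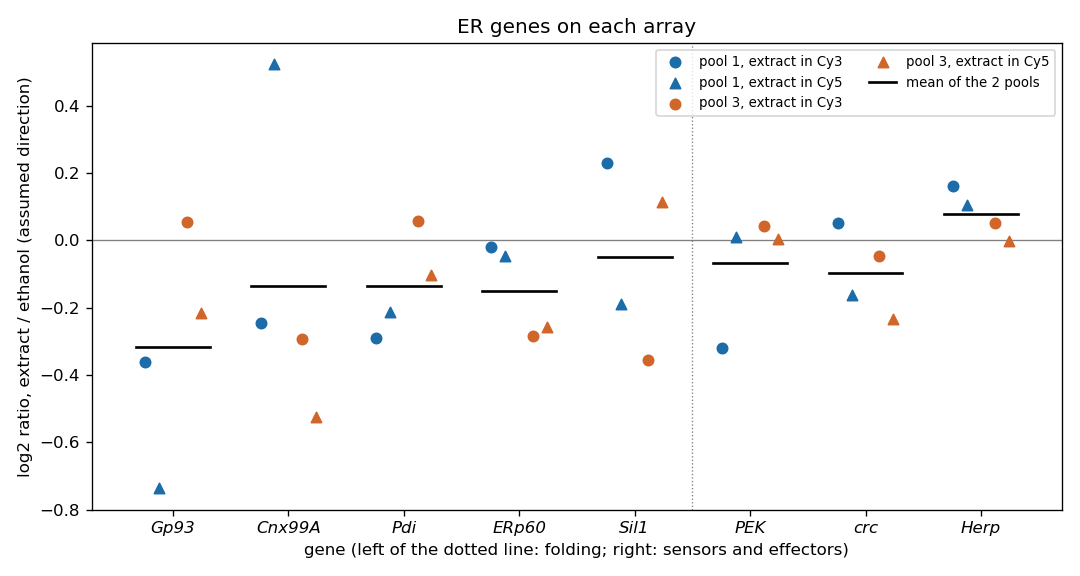
Log2 ratio (y axis, extract over ethanol in the assumed direction) of each ER gene (x axis) on the 4 arrays; colour gives the pool, shape the dye of the extract sample, and the black bar the mean of the 2 pools. ERp60 is the gene with all 4 points below 0, and for Cnx99A the Cy5 array of pool 1, at 0.52, stands away from the other 3.

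The folding factors begin with Gp93, the Hsp90-type chaperone of the ER lumen and the fly counterpart of mammalian GRP94. Gp93 stood at -0.36 on the Cy3 array and -0.74 on the Cy5 array of pool 1, and at 0.05 and -0.22 on the Cy3 and Cy5 arrays of pool 3. Both arrays of pool 1 lay lower than both of pool 3. Its mean of -0.32 ± 0.17 (limma's standard error, n = 2 pools, as for all means below) was the lowest of the set and the 45th lowest of the 2377 named genes (limma, adjusted p = 0.739). The pool means were -0.55 and -0.08. The 95% interval reached from -0.69 to 0.06, or from 0.618 to 1.04 times the ethanol level.

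Cnx99A encodes calnexin, a membrane-bound lectin chaperone known in the fly eye for its part in rhodopsin maturation. Its ratio was -0.25 on the Cy3 array and 0.52 on the Cy5 array of pool 1, and -0.29 and -0.53 on those of pool 3. A single array was thus above 0. The mean was -0.14 ± 0.17 (limma, adjusted p = 0.897), and it turned to 0.06 without the Cy3 array of pool 1. The dye swap of pool 1 differed by 0.770, where the median gap between these arrays over named genes was 0.286.

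Pdi and ERp60 encode disulfide isomerases, which form and rearrange the disulfide bonds of secreted proteins. Pdi stood at -0.29 and -0.21 on the Cy3 and Cy5 arrays of pool 1, and at 0.06 and -0.10 on those of pool 3. Its mean of -0.14 ± 0.15 did not pass (limma, adjusted p = 0.877), and pool 1 lay below pool 3 on both arrays. ERp60 is related to mammalian ERp57, which works there together with calnexin and calreticulin. ERp60 stood at -0.02 and -0.05 on the Cy3 and Cy5 arrays of pool 1, and at -0.29 and -0.26 on those of pool 3. It was below 0 on every array, as were 7.99% of named genes, but only pool 3 lay away from 0. The mean was -0.15 ± 0.15 (limma, adjusted p = 0.857).

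Sil1 encodes a nucleotide exchange factor that in yeast and mammals releases ADP from BiP, the Hsp70 of the ER. On the Cy3 and Cy5 arrays it stood at 0.23 and -0.19 in pool 1 and at -0.36 and 0.11 in pool 3. Both signs occurred in each pool, and the dye swaps differed by 0.417 and 0.471. The mean was -0.05 ± 0.15 (limma, adjusted p = 0.966). It lay above 0 without the Cy5 array of pool 1 (0.05) or without the Cy3 array of pool 3 (0.07).

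Among the sensors and effectors, PEK, the eIF2alpha kinase in the ER membrane, stood at -0.32 on the Cy3 array and 0.01 on the Cy5 array of pool 1. In pool 3 its values were 0.04 and 0.00349. Its mean of -0.07 ± 0.15 therefore rested on 1 array (limma, adjusted p = 0.954), and without that array it was 0.02.

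crc encodes the fly ATF4, a bZIP transcription factor. Its ratio was 0.05 on the Cy3 array and -0.16 on the Cy5 array of pool 1, and -0.05 and -0.23 on those of pool 3. The 2 Cy5 arrays were both below the 2 Cy3 arrays, while the pools overlapped. The mean was -0.10 ± 0.15 as deposited and 0.10 ± 0.15 with the Cy5 arrays turned (limma, adjusted p = 0.923 and 0.973). Gp93, crc and Herp were the 3 of 8 members whose Cy5 value lay below the Cy3 value in both pools, a pattern held by 27.4% of named genes.

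Herp is the fly homologue of HERPUD1, a ubiquitin-like protein of the ER membrane that assists ER-associated degradation. It stood at 0.16 and 0.10 on the Cy3 and Cy5 arrays of pool 1, and at 0.05 and -0.00347 on those of pool 3. It had the narrowest range over the arrays (0.165) and a mean of 0.08 ± 0.15 (limma, adjusted p = 0.944). It was the 1 member with a mean above 0.

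Agreement between the 2 spots of a gene, which are neighbours by number, was weak on these arrays and differed widely within the set. Over all named genes with 2 spots, the spots correlated at a Pearson r of 0.352 and 0.414 on the Cy3 and Cy5 arrays of pool 1. In pool 3 these values were 0.335 and 0.113. For the members alone r was 0.008 and 0.565 in pool 1, and 0.146 and -0.083 in pool 3. ERp60 had a median gap between its spots of 0.0125 over the 4 arrays, the smallest of the 2089 named genes with 2 spots, where the median was 0.247. All 8 of its spot values lay below 0. The spots of crc also lay close together, with a median gap of 0.0851 and at most 0.143. Sil1, Pdi and Gp93 were at the other end, with median gaps of 0.567, 0.433 and 0.429. On the Cy3 array of pool 1 the spots of Gp93 read -0.79 and 0.07, and those of PEK 0.03 and -0.67. The low PEK value on that array thus came from 1 spot. For Pdi the lower-numbered spot was at 0.36 and 0.25 on the Cy3 and Cy5 arrays of pool 3 and the other at -0.25 and -0.46.

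**Figure D2:**
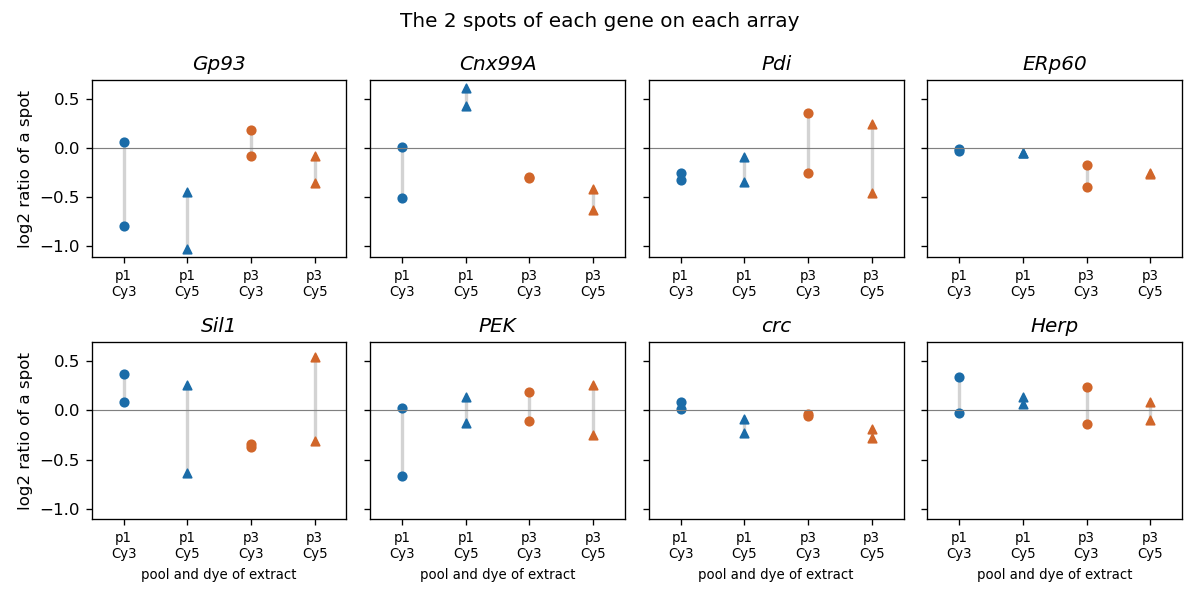
Log2 ratio (y axis) of the 2 spots of each ER gene, 1 panel a gene, on the 4 arrays (x axis, pool 1 or 3 as p1 or p3, with the dye of the extract sample); a grey line joins the 2 spots of an array. The spots of crc lie within 0.143 of each other on every array and those of ERp60 within 0.224, whereas those of Gp93, Pdi, Sil1 and PEK lie apart, by up to 0.888 for Sil1.

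Pool means differed by more than either dye swap for Gp93, Pdi, ERp60 and Herp. The share of named genes with this pattern was not counted, so nothing is concluded from it. The arrays of pools 1 and 3 did not overlap for 5 of the 8 genes (Gp93, Cnx99A, Pdi, ERp60 and Herp), against 32.9% of named genes. This count was not tested, since the members were chosen with results known. The direction was not shared: Gp93 and Pdi were lower in pool 1, and Cnx99A and ERp60 were lower in pool 3. With Herp, lower in pool 3, these 5 gaps between pool means ran from -0.47 for Gp93 to 0.55 for Cnx99A, taken as pool 1 minus pool 3. In order of mean ratio the members ran Gp93, ERp60, Pdi, Cnx99A, crc, PEK, Sil1 and Herp. The widest step between neighbours was 0.164, from Gp93 to ERp60, and the 95% intervals of all neighbours overlapped.

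The folding genes and the stress genes were then set against each other. The 5 folding genes averaged -0.14 and -0.13 on the Cy3 and Cy5 arrays of pool 1 and -0.17 and -0.20 on those of pool 3. PEK, crc and Herp averaged -0.04 and -0.02 in pool 1 and 0.02 and -0.08 in pool 3. The folding mean was the lower on all 4 arrays. Folding minus stress genes came to -0.11 in pool 1 and -0.15 in pool 3, with a mean of -0.13 (SD 0.03, n = 2 pools). An SD of 2 values is itself uncertain. limma's standard errors of the members, from 0.149 to 0.174, are another measure, for single genes, and do not give the uncertainty of this difference. As the members were chosen with results known, no test was made of the folding minus stress difference. It was -0.01 with the Cy5 arrays turned, where the pools gave 0.01 and -0.03. It also depended on single genes, at -0.09 without Gp93 and -0.08 without Herp, both left out after seeing the data. The classes overlapped gene by gene, as Sil1 at -0.05 lay above both crc at -0.10 and PEK at -0.07.

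**Figure D3:**
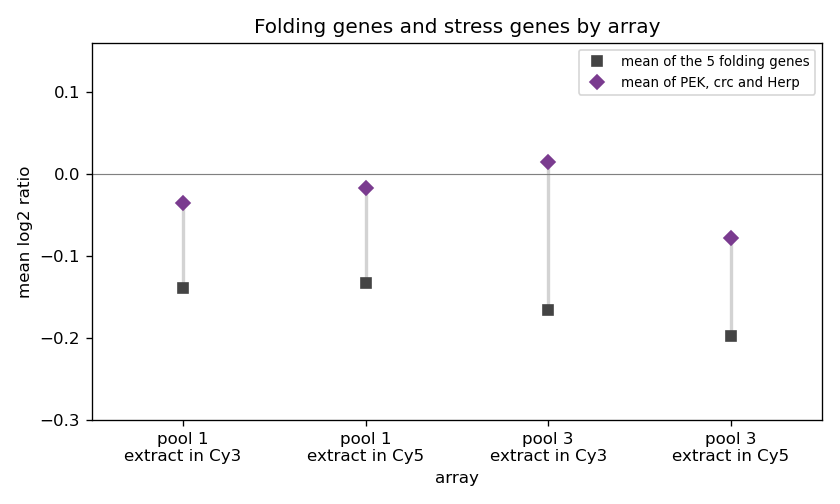
Mean log2 ratio (y axis) of the 5 folding genes (squares) and of PEK, crc and Herp (diamonds) on each array (x axis), joined by a grey line. The squares lie between -0.20 and -0.13 and below the diamonds, which lie between -0.08 and 0.02, on all 4 arrays.

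The 95% intervals bound the measured ratios. They cannot say how large a change in RNA was missed, since signal over background is unknown. The interval of dj, a male organ gene absent from females, was similar, from -0.40 to 0.36. All 8 intervals of the ER genes held 0. All 8 also lay between a 2-fold fall and a 2-fold rise, both as deposited and with the Cy5 arrays turned. As deposited, the widest bounds were 0.618 times the ethanol level for Gp93 and 1.33 times for Herp. Turned, they were 0.692 for Cnx99A and 1.41 for Gp93. Turned, the means were 0.16 for Gp93, -0.13 for Cnx99A, 0.02 for Pdi, 0.000155 for ERp60, -0.01 for Sil1, -0.07 for PEK and 0.03 for Herp. Since 2 pools leave 1 residual degree of freedom, the intervals depend on the variance pooled by limma over the whole table.

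**Figure D4:**
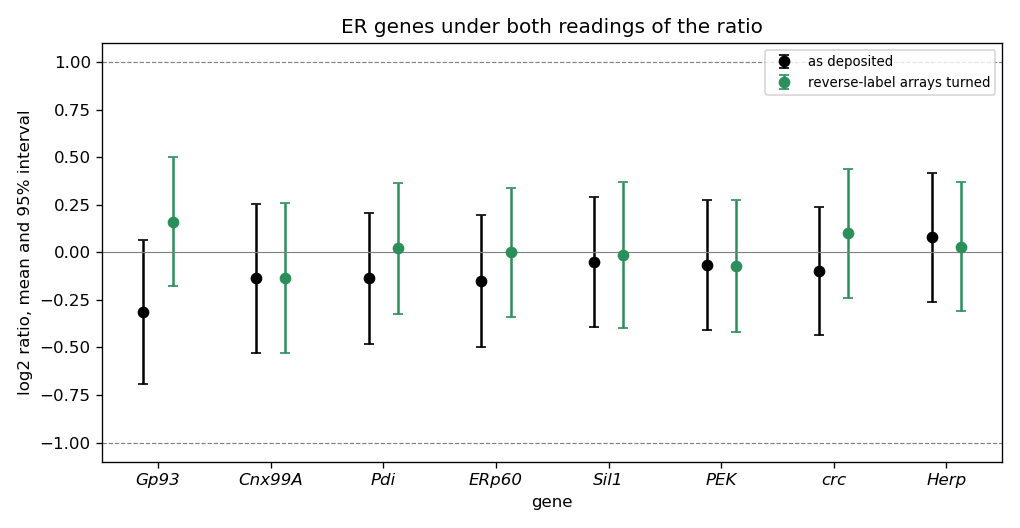
Mean log2 ratio of each ER gene with its 95% interval (limma, n = 2 pools), as deposited (black) and with the 2 Cy5 arrays turned (green); dashed lines mark a 2-fold fall and rise. Every interval holds 0 and stays inside the dashed lines, and Gp93, Pdi, ERp60 and crc lie below 0 as deposited and above it when turned, ERp60 by only 0.000155.

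**Figure D5:**
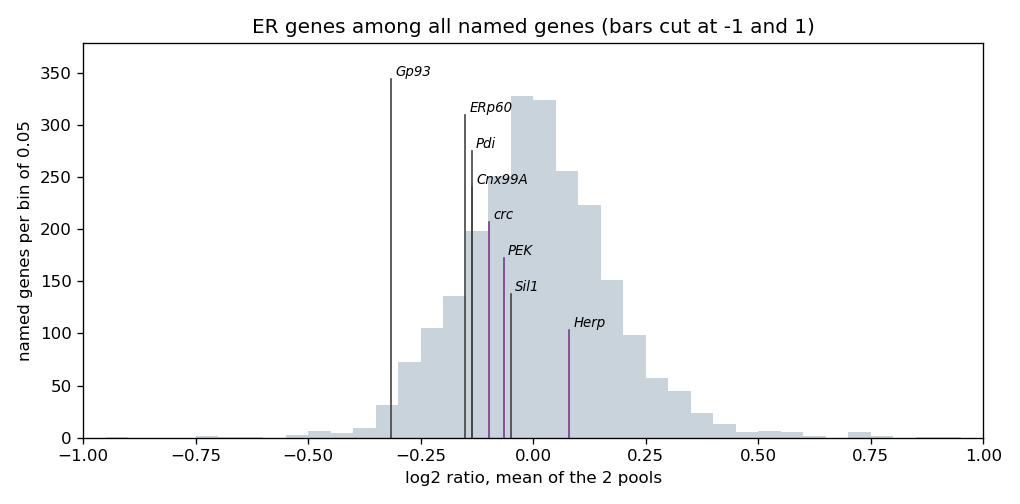
Number of named genes (y axis) by mean log2 ratio (x axis, bins of 0.05, drawn from -1 to 1), with a line for each ER gene (grey for folding genes, purple for PEK, crc and Herp; line height has no meaning). Gp93 at -0.32 lies in the lower tail and the other members, from -0.15 to 0.08, in the body of the distribution.

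Other genes of the ER pathways were thinly covered. From 7 further lists with 128 genes, 20 were measured under a gene name, and 0 passed the limma test in either direction. An unadjusted p under 0.05 was found for 3 of the 20 (aay, Sesn and Alg13, the last from 1 array), against 7.34% of all features. Of the 20, 6 lay above 0 and 14 below, with a median of -0.09, where 48.5% of named genes lay below 0. With the Cy5 arrays turned, 10 lay below 0 and the median was 0.01, where 49.2% of named genes lay below 0. The sensors Ire1 and Atf6, the factor Xbp1 and the chaperone Hsc70-3 (BiP) were not analysed here.

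Of 3 other folding genes, Fkbp14, a prolyl isomerase, was highest at 0.07 ± 0.15 and prtp, a disulfide isomerase-like protein, lowest at -0.09 ± 0.15. RtcB, the RNA ligase that joins spliced Xbp1 mRNA in mammals, was the 1 measured gene of the transducer list and stood at -0.21 ± 0.15. For ER-associated degradation (3 genes), Edem1, which routes misfolded glycoproteins to degradation, stood at 0.02 ± 0.16 and Hrd3, a partner of the Hrd1 ubiquitin ligase, at -0.17 ± 0.15. Of 4 genes of transport to the Golgi, the coat subunit Sec24AB was highest at 0.14 ± 0.15 and the cargo receptor eca lowest at -0.23 ± 0.15.

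All 4 N-glycosylation genes and all 3 translocon and targeting genes lay below 0, against 3 of 4 and 2 of 3 with the Cy5 arrays turned. Over named genes the shares below 0 were 48.5% as deposited and 49.2% turned. None of these list genes passed the limma test, and lists of 4 and 3 genes are too short for their signs to show a direction. In the first list GCS2alpha, a glucosidase subunit that trims the glycans calnexin binds, stood at -0.03 ± 0.16. Alg13, a subunit of the transferase for the second sugar of the glycan precursor, had a mean of -1.79 ± 0.52 (limma, adjusted p = 0.499). It came from 1 array: Alg13 stood at -6.71 on the Cy5 array of pool 1, and at 0.10, -0.17 and -0.39 on the Cy3 array of pool 1 and the Cy3 and Cy5 arrays of pool 3. Without the first of these the mean was -0.09, and with the Cy5 arrays turned it was 1.76. In the second list the translocon subunit Sec61beta stood at -0.11 ± 0.15 and Srp68, of the signal recognition particle, at -0.22 ± 0.15 (turned, 0.09).

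The 2 measured genes of the list of ATF4 targets (of 9 listed) were both above 0, where 48.5% of named genes lay below 0. These are fly counterparts of genes that ATF4 induces in mammals. aay, the phosphoserine phosphatase of serine synthesis, stood at 1.33 and 1.36 on the Cy3 and Cy5 arrays of pool 1 and at 0.82 and 0.60 on those of pool 3. All 4 values lay above every crc value. Its mean of 1.03 ± 0.18 did not pass over all features (limma, adjusted p = 0.152). It passed with arrays scaled to equal spread (limma, adjusted p = 0.0180) and with named genes tested alone (limma, adjusted p = 0.0103). Sesn, sestrin, a stress-induced regulator of TOR, stood at 0.29 and 0.64 in pool 1 and 0.42 and 0.32 in pool 3, with a mean of 0.42 ± 0.15 (limma, adjusted p = 0.577). With the Cy5 arrays turned aay stood at 0.05 and Sesn at -0.06. The aay result was known when the list was made, so it gives the list no independent support.

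Tissues that secrete much protein are known to make the most use of ER folding, and their markers were read in the same way. In the fat body and yolk list, 2 of 13 genes were measured and both lay below 0, as did 48.5% of named genes. The lipophorin precursor apolpp stood at -0.54 ± 0.18 and Fbp2 at -0.18 ± 0.15 (limma, adjusted p = 0.552 and 0.825). With the Cy5 arrays turned apolpp stood at 0.02 and Fbp2 at -0.13. The digestive tract list held 1 measured gene of 27, LManII at -0.11 ± 0.15, and no eggshell gene was measured. Among 3 measured male organ genes, absent from females, Acp53C14a stood at 0.03 and dj at -0.02. Single arrays spread more widely for dj, at 0.02 and 0.43 (Cy3 and Cy5) in pool 1 and 0.15 and -0.68 in pool 3. Acp53C14a ran from -0.08 to 0.19 over the arrays, and Acp36DE from -0.15 to 0.27. The part of secretory tissue in the ER ratios was not tested.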

How the data were processed

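Per the labels, total RNA of treated and control pools was labelled with Cy3 or Cy5 and hybridised in 2 dye orientations per pool. The authors deposited 1 log ratio per spot, taken as log2. How the arrays were scanned, background-corrected, normalized and filtered is not given in the sources used here, so signal over background is unknown and the number of arrays limits the precision. Arrays were centred on their medians (shift at most 0.00218). The platform annotation gave 1 gene for 5666 spots, several for 152 and none for 11078. All 5666 symbols matched NCBI RefSeq's gene table of Release 6 by gene number. Spots of a gene were averaged per array, other spots stayed single, and the dye swap of a pool was averaged, since both arrays hold the same RNA.

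A two-sided limma 3.58.1 fit (lmFit, eBayes; R 4.3.3) of pool ratios against 0 ran over all 13607 features, with Benjamini-Hochberg adjustment at 0.05 and 8.19 prior degrees of freedom. It was also run on simulated data, with shifts larger than any member's ratio and arrays drawn independently. That run does not cover effects of the members' size or a spread between pools. With 2 pools the smallest p that an exact sign test can give is 0.5. The series design gives a pool as flies that were treated simultaneously, so the tests see only the spread between 2 such pools. All 8 members are named, and of each other list the highest and lowest measured gene and any gene past the test. Members and lists were chosen with earlier results of these data known. Alternatives were the Cy5 arrays turned, each array or pool left out, a replicate block, no centring, equal spread, the median or a single spot per gene, and named genes alone.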

Additional observations from a re-analysis of the deposited data

Results flagged for a closer look

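For PEK, 1 array lay far from the other 3: the Cy3 array of pool 1 stood at -0.319, and the others lay between 0.00349 and 0.0418. It was the 1 such case among 9 sets of 4 arrays examined (the 8 members and the folding minus stress difference), where chance gives about 1 in 20. On that array the 2 PEK spots read 0.03 and -0.67.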

How the results depend on the processing

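None of the 8 members passed the limma test in any of the 12 alternative fits. Gp93 alone reached an unadjusted p under 0.05, in 3 of them: with the replicate block (limma, adjusted p = 0.447), from the lower-numbered spots (adjusted p = 0.670) and among named genes alone (adjusted p = 0.576). With the Cy5 arrays turned, 3 members lay below 0, the folding minus stress difference was -0.0119, and Gp93, Pdi, ERp60 and crc changed sign, to 0.161, 0.0208, 0.000155 and 0.0999. From the lower-numbered spots the difference was -0.0989, Pdi 0.0690 and Herp -0.00156; from the higher-numbered spots the difference was -0.161. Leaving out an array or a pool gave -0.410 to 0.138 for Cnx99A, -0.168 to 0.0671 for Sil1 and -0.155 to 0.0227 for PEK, and the difference ran from -0.165 to -0.0763 over these and over single members left out, a setting chosen after seeing the data. The cause of these changes was not tested.

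Over all features, 6 passed as reported, 0 with the Cy5 arrays turned, 12 with the replicate block, 42 at equal spread, 19 from the higher-numbered spots, 10 among named genes alone and 0 to 11 without 1 array (0 without the Cy3 array of pool 3, 11 without the Cy5 array of pool 1). In the 2 settings with 0, the limma fits had 647 and 835 features at an unadjusted p under 0.05. The block correlation was -0.244, so the block did not hold the 2 arrays of a pool as 1 replicate. Of the other lists, 1 gene passed at equal spread and 1 among named genes alone, aay in both. Background correction, normalization within arrays and a filter on dim spots could not be varied from ratios alone.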
